A study of Mus musculus with 16 samples.

Results

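The genes for h-current channels described here are Hcn2, Hcn3 and Hcn4, together with Pex5l, the gene of an auxiliary subunit. They are the rows of the count table with these 4 gene names, 4 of 49315 genes, and all 4 passed the filter on low counts that left 17469 genes for testing. They were measured by RNA sequencing of the hippocampus in 16 mice, 4 in each group. The 4 groups cross genotype, wild type (WT) or Kcna1 knockout (KO), with diet, Standard Diet or Ketogenic Diet, and no allele or agent beyond these is labelled. The product of Kcna1 is a potassium channel subunit, mice without it serve as a model of epilepsy, and a ketogenic diet is rich in fat and poor in carbohydrate. The labels give no allele, strain, age, sex or length of diet for any group.

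HCN channels are cation channels that open when a neuron hyperpolarises and carry the h-current, which sets resting potential, dendritic integration and rhythmic firing. Cyclic AMP binds to their intracellular end and makes most of them easier to open. The Pex5l protein, also named TRIP8b, binds the channel's intracellular part, steers it to dendrites and weakens the action of cyclic AMP. In the hippocampus these channels are known for the dendrites of pyramidal cells and for interneurons, and changes in the h-current are a long-studied feature of epilepsy. Hcn4 is best known as the pacemaker channel of the heart and is strong in thalamic neurons.

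Total counts ranged from 13440230 to 22309504 per library. All 8 hippocampal markers, among them Zbtb20, Prox1 and Fibcd1, were above 0 in all 16 libraries. Kcna1 measured 116 to 130 CPM (counts scaled to a common library total, with TMM factors) in standard-fed wild type and 107 to 130 CPM in ketogenic-fed wild type, against 43.4 to 47.2 CPM in ketogenic-fed knockouts. Standard-fed knockouts measured 44.6 to 82.0 CPM, and the highest of these was the library labelled knockout KC888LL, which lay between the genotypes. Expression of Y-linked genes marked 1 of 4 standard-fed wild type libraries, 2 of 4 standard-fed knockouts, 1 of 4 ketogenic-fed wild type libraries and 0 of 4 ketogenic-fed knockouts.

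Hcn2 (ENSMUSG00000020331) lies at chr10:79716634-79736108 on the plus strand of GRCm38, and Hcn4 (ENSMUSG00000032338) at chr9:58823412-58863175, also on the plus strand. Hcn3 (ENSMUSG00000028051) lies at chr3:89146074-89160196 and Pex5l (ENSMUSG00000027674) at chr3:32949408-33143247, both on the minus strand. In the annotation 17.1% of the exon length of Hcn3 is shared with exons of Pklr on the opposite strand. The Pex5l exons share 3.84% with Gm37459 and 0.271% with 4930419G24Rik, both on the opposite strand. The use of strand in counting is not given in the sources used here, so a part of the Hcn3 and Pex5l counts could come from these neighbours, whereas Hcn2 and Hcn4 overlap no annotated gene.

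The bases upstream of the Hcn4 and Hcn2 starts are shown because Hcn4 is the member that differed with diet and Hcn2 the member with the highest length-scaled level. Each run holds the 250 bases before the RefSeq start on GRCm38.p6, with matches to the GC box in capitals. The windows are chr9:58822699-58822948 and chr10:79716384-79716633, both on the plus strand.
Hcn4: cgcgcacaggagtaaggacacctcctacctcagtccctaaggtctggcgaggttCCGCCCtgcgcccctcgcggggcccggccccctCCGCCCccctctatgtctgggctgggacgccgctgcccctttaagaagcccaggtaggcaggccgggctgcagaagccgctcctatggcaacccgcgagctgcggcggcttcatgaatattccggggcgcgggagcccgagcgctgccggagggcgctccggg
Hcn2: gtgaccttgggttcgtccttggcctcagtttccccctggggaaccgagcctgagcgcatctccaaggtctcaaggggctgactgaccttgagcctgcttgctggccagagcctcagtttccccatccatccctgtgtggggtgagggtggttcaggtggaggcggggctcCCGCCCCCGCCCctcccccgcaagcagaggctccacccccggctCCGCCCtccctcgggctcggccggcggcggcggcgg
Both windows are rich in G and C, at 71.2% for Hcn4 and 70.4% for Hcn2, against a median of 52.4% over 32851 windows of the same length. They hold 25 and 16 CG pairs, where the median window holds 6. The GC box, spelled GGGCGG and searched on both strands, matched 2 times in Hcn4 and 3 times in Hcn2, and 32.7% of all windows hold it. The half-site of the cyclic AMP response element (TGACG, held by 17.8% of windows and contained in the full element), the CCAAT box (33.8%) and the TATA box (TATAAA, 12.4%) had 0 matches in either window on both strands. The RefSeq start of Hcn4 lies 463 bases before the GENCODE start, while for Hcn2 the 2 annotations give the same base. The table of promoters used here has no entry for Hcn3 or Pex5l.

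Levels between genes were compared as CPM per kilobase of annotated exon. Hcn2 had the highest level in every library, from 26.0 to 35.5 CPM per kilobase (mean 30.7 ± 2.65, SD, n = 16). Pex5l followed at 14.3 to 21.1 CPM per kilobase (mean 18.2 ± 2.31, SD, n = 16). Hcn3 ranged from 3.63 to 5.54 (mean 4.31 ± 0.641, SD, n = 16), and Hcn4 from 0.353 to 0.933 CPM per kilobase (mean 0.609 ± 0.195, SD, n = 16). The 4 ranges did not overlap, so the order Hcn2, Pex5l, Hcn3, Hcn4 held in each of the 16 animals. It rests on the exon lengths of the annotation, 3195 bases for Hcn2, 8846 for Pex5l, 4154 for Hcn3 and 6118 for Hcn4, and longer exon models than those in use in this tissue would lower a level.

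**Figure D1:**
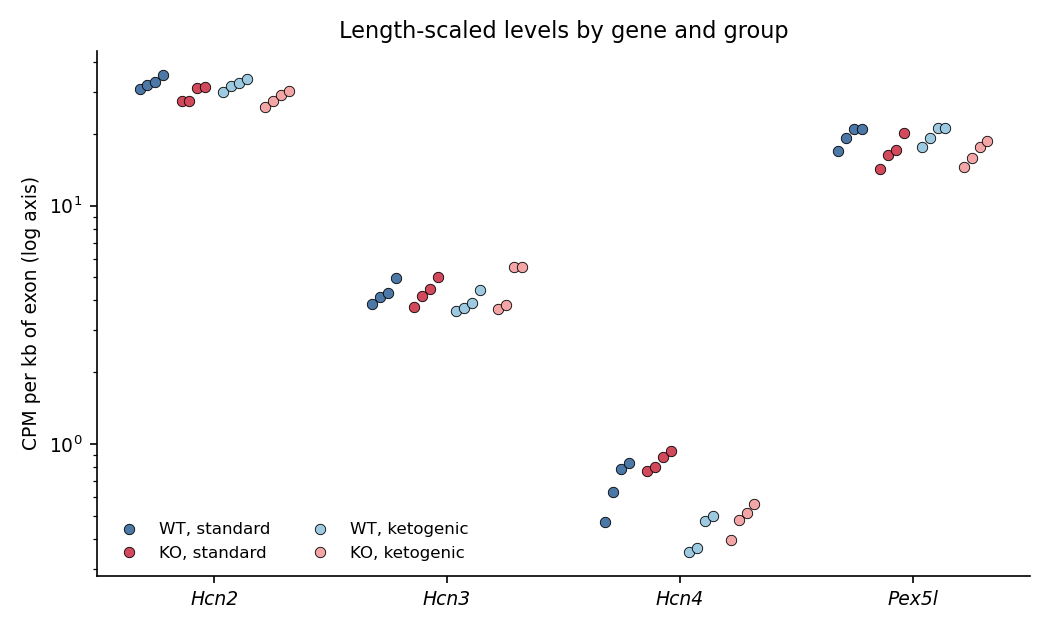
CPM per kilobase of annotated exon, on a log axis, for the 4 genes. Each point is 1 library, coloured by group, and points are spread sideways within a group for visibility. The 4 genes occupy separate ranges, with Hcn2 at 26.0 to 35.5 and Hcn4 at 0.353 to 0.933.

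Of the length-scaled total of the 3 channel genes, Hcn2 made up 86.9% ± 0.859 (SD, n = 4) in wild type and 84.9% ± 2.30 in standard-fed knockouts, and 88.1% ± 0.949 and 84.5% ± 3.32 on the ketogenic diet. Hcn3 made up 11.4% ± 0.556, 12.7% ± 2.06, 10.7% ± 0.752 and 14.0% ± 3.40 in the same order. The Hcn4 share was 1.78% ± 0.380 and 2.46% ± 0.258 on the standard diet, and 1.16% ± 0.202 and 1.46% ± 0.186 on the ketogenic diet. The 3 shares make up a fixed whole, so they cannot vary independently. Over the libraries the Hcn3 share ran from 9.85% to 17.3% and the Hcn4 share from 0.959% to 2.79%.

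The diet comparisons ask what the ketogenic diet changes in each genotype, and among the 4 genes Hcn4 was the one that differed. In each genotype the diets also hold separate series of animal tags, so diet cannot be told apart from what goes with tag order. In the knockout Hcn4 measured 4.72, 4.88, 5.41 and 5.71 CPM in standard-fed mice. In ketogenic-fed mice it measured 2.43, 2.94, 3.14 and 3.44 CPM. Every knockout library on the ketogenic diet was below every knockout library on the standard diet, a separation toward lower values that 3.72% of the tested genes showed. The mean of Hcn4 fell to 2.99 ± 0.425 CPM from 5.18 ± 0.460 (SD, n = 4). The log2 fold change was -0.80 ± 0.19 (SE), or 0.575 of the standard-diet level with a 95% interval of 0.438 to 0.756 (edgeR, adjusted p = 0.0436). Of all tested genes, 1.16% were called in this comparison and 0.95% were called lower, while 16.9% had an unadjusted p under 0.05. The call was near the threshold: it was kept in 1 of the 8 leave-one-library-out fits, the fit without KC888LL (adjusted p = 0.0329), and the adjusted p was at most 0.125 in the others, while the log2 fold change stayed between -0.87 and -0.71.

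In wild type Hcn4 measured 2.89, 3.84, 4.80 and 5.10 CPM in standard-fed mice. In ketogenic-fed mice it measured 2.16, 2.23, 2.89 and 3.06 CPM. The groups overlapped through the lowest standard-diet library, KC890RL, which was also the wild type library of that group with Y-linked expression. The means were 4.16 ± 1.00 and 2.59 ± 0.459 CPM (SD, n = 4), with a log2 fold change of -0.68 ± 0.19 (SE), a fold of 0.622 (95% interval 0.472 to 0.821). This did not pass the threshold over all genes (edgeR, unadjusted p = 0.00202, adjusted p = 0.743), in a comparison in which 0.0114% of genes were called and 5.46% had an unadjusted p under 0.05. By p-value Hcn4 ranked 47 among 17469 genes. DESeq2 and limma-voom also called 0 of the 4 genes here.

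The fitted difference of the diet effect on Hcn4 between genotypes was -0.11 ± 0.27 (SE) on the log2 scale, with a 95% interval of -0.68 to 0.45 (edgeR, adjusted p = 0.943). A difference between the genotypes in either direction within that interval could not be seen with these groups. Of all genes, 0% were called in this interaction and 7.48% had an unadjusted p under 0.05. Over both genotypes the log2 fold change of Hcn4 with the diet was -0.74 ± 0.13 (SE), or a fold of 0.598 (95% interval 0.493 to 0.727; edgeR, adjusted p = 0.0124). In this comparison 0.899% of genes were called and 0.761% were called lower, 14.4% had an unadjusted p under 0.05, and Hcn4 ranked 36 by p-value. It was called in all 16 leave-one-library-out fits, with adjusted p from 0.00638 to 0.0380. The call was lost with a covariate for thalamus markers (-0.70, adjusted p = 0.305) or oligodendrocyte markers (-0.94, adjusted p = 0.245), both chosen after seeing the data, and kept in the other 8 of 10 alternatives. The 8 libraries on the ketogenic diet lay at or below 3.44 CPM, and 7 of the 8 on the standard diet lay above it.

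**Figure D2:**
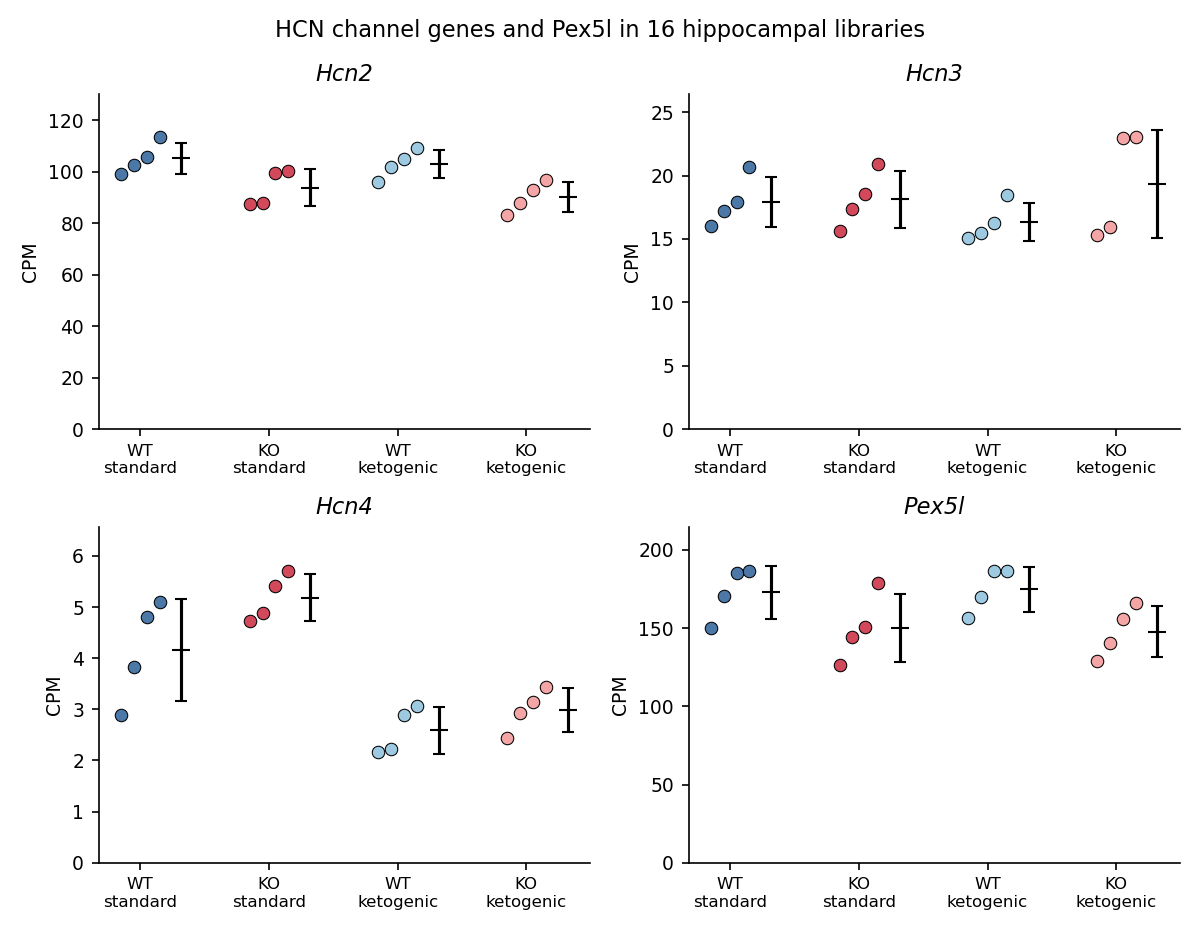
CPM of each gene in the 16 libraries, with 1 panel per gene and all axes from 0. Points are libraries in order of value within a group, and the bar beside them is the mean ± SD (n = 4). For Hcn4 both ketogenic groups sit low, between 2.16 and 3.44 CPM, while for Hcn3 and Pex5l all 4 groups overlap, and Hcn2 is 99.0 to 113 CPM in standard-fed wild type and 83.1 to 96.6 CPM in ketogenic-fed knockouts.

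Hcn4 is the least abundant of the 4 genes, with 40 to 100 counts per library. In KC843RL, the lowest, 40 counts gave 2.13 CPM of the total with a 95% Wilson interval of 1.57 to 2.91 CPM. In KC893RL, the highest, 90 counts gave 5.72 CPM with an interval of 4.65 to 7.02 CPM. These intervals cover counting error only. The intervals of these 2 libraries do not overlap, but the libraries were picked as the lowest and the highest. KC843RL is a ketogenic-fed wild type and KC893RL a standard-fed knockout, so the gap bears on no single comparison.

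Marker lists of several cell types also had different levels between the diets in the same libraries. In bulk tissue, fewer cells of a type and less RNA per cell cannot be told apart. The summed level of 6 thalamus markers, a neighbouring tissue in which Hcn4 is strong, was 94.5 to 149 CPM in standard-fed knockouts and 77.5 to 115 CPM on the ketogenic diet, with 6 of 6 lower. Of the 6, 1 was called by edgeR, 2 by DESeq2 and 0 by limma-voom. In wild type the sum was 108 to 128 CPM on the standard diet and 90.9 to 103 CPM on the ketogenic diet, with 4 of 6 lower and 0 called (edgeR, DESeq2 and limma-voom alike, and 0 at an unadjusted p under 0.05). None of the 6 was at 0 in any library. Of 5 habenula markers 3 passed the filter, Chrnb4 was at 0 in 2 libraries and Pou4f1 in 5, and the summed level of the 5 was 5.03 to 8.75 CPM in standard-fed knockouts and 4.26 to 6.69 CPM on the ketogenic diet. In wild type it was 4.04 to 4.94 CPM on the standard diet and 3.60 to 5.18 CPM on the ketogenic diet.

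The 10 oligodendrocyte markers, such as Mbp and Mog, summed to 5096 to 5591 CPM in standard-fed knockouts and 1960 to 3671 CPM on the ketogenic diet, with 10 of 10 lower and 9 called. In wild type they summed to 4092 to 6336 CPM and 3378 to 4290 CPM, with 10 of 10 lower. There 0 were called by edgeR, DESeq2 or limma-voom, although 9 of 10 had an unadjusted p under 0.05, beside 5.46% of all genes. The 5 microglia markers summed to 229 to 439 CPM in standard-fed knockouts and 201 to 212 CPM on the ketogenic diet, with 5 of 5 lower, 0 called by edgeR or limma-voom, 5 by DESeq2, and 5 at an unadjusted p under 0.05. Over all genes 16.9% had such a p with the diet in knockouts, edgeR called 202 and DESeq2 called 677. In the same comparison 5 of 6 astrocyte markers were lower. Of the 6, 0 were called by edgeR or limma-voom, 1 was called by DESeq2 and 3 had an unadjusted p under 0.05. Most markers of hippocampal neurons were higher there, and the hippocampal list shares genes with the CA1, CA3 and dentate lists. The 6 dentate granule cell markers were mixed, with 4 higher and 2 lower, 0 called by edgeR, DESeq2 or limma-voom and 0 at an unadjusted p under 0.05. Of the 8 hippocampal markers 7 were higher and 1 was called, of the 6 CA1 markers 5 were higher and 1 was called, and of the 5 CA3 markers 5 were higher, with 0 called by edgeR or limma-voom, 1 by DESeq2 and 3 at an unadjusted p under 0.05. With the log2 sum of the thalamus markers as a covariate the diet difference of Hcn4 in the knockout was -0.75 (edgeR, adjusted p = 0.288), and with that of the oligodendrocyte markers it was -1.07 (adjusted p = 0.361). Both fits were chosen after seeing the data. Neither value passed the threshold, and with the oligodendrocyte covariate 2 genes in all were called against 202 without it. Whether cell content accounts for the Hcn4 difference was not tested.

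**Figure D3:**
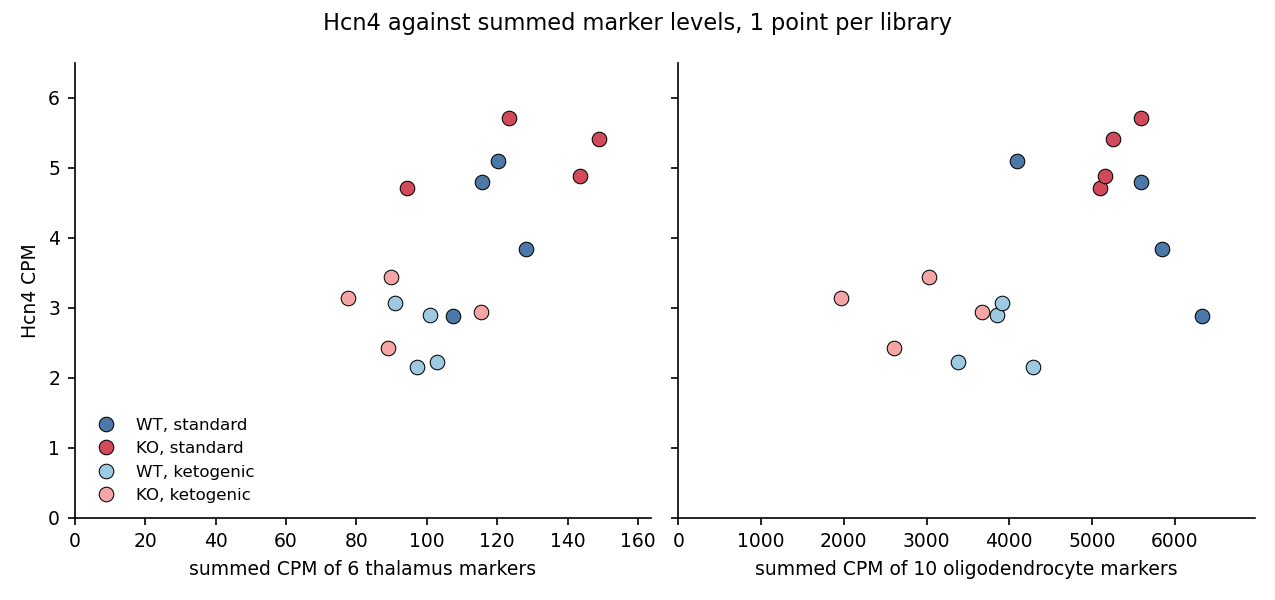
Hcn4 CPM against the summed CPM of the thalamus markers (left) and the oligodendrocyte markers (right), with 1 point per library coloured by group and all axes from 0. The ketogenic libraries lie low on Hcn4 and mostly low on both sums.

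Across the 16 libraries log2 CPM of Hcn4 had Pearson's r of 0.616 and Spearman's rho of 0.600 with the log2 thalamus sum, r of 0.478 without the 2 libraries farthest from the median sum, and r of 0.0933 after group means were subtracted. For the oligodendrocyte sum the values were 0.508, 0.429, 0.499 and -0.277. The points share libraries and scaling factors, and the part of either cell type in the Hcn4 difference was not tested. With the log2 sum of the 8 hippocampal markers the values of Hcn4 were -0.612, -0.679, -0.542 and -0.572 in the same order. The libraries also differed in sex markers. In standard-fed knockouts the 2 libraries with Y-linked expression held the lower Hcn4 values, 4.72 and 4.88 CPM, still above the 3.44 CPM maximum of the knockout on the ketogenic diet. With log2 CPM of Xist as a covariate the difference in the knockout was -0.97 (edgeR, adjusted p = 0.0588).

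**Figure D4:**
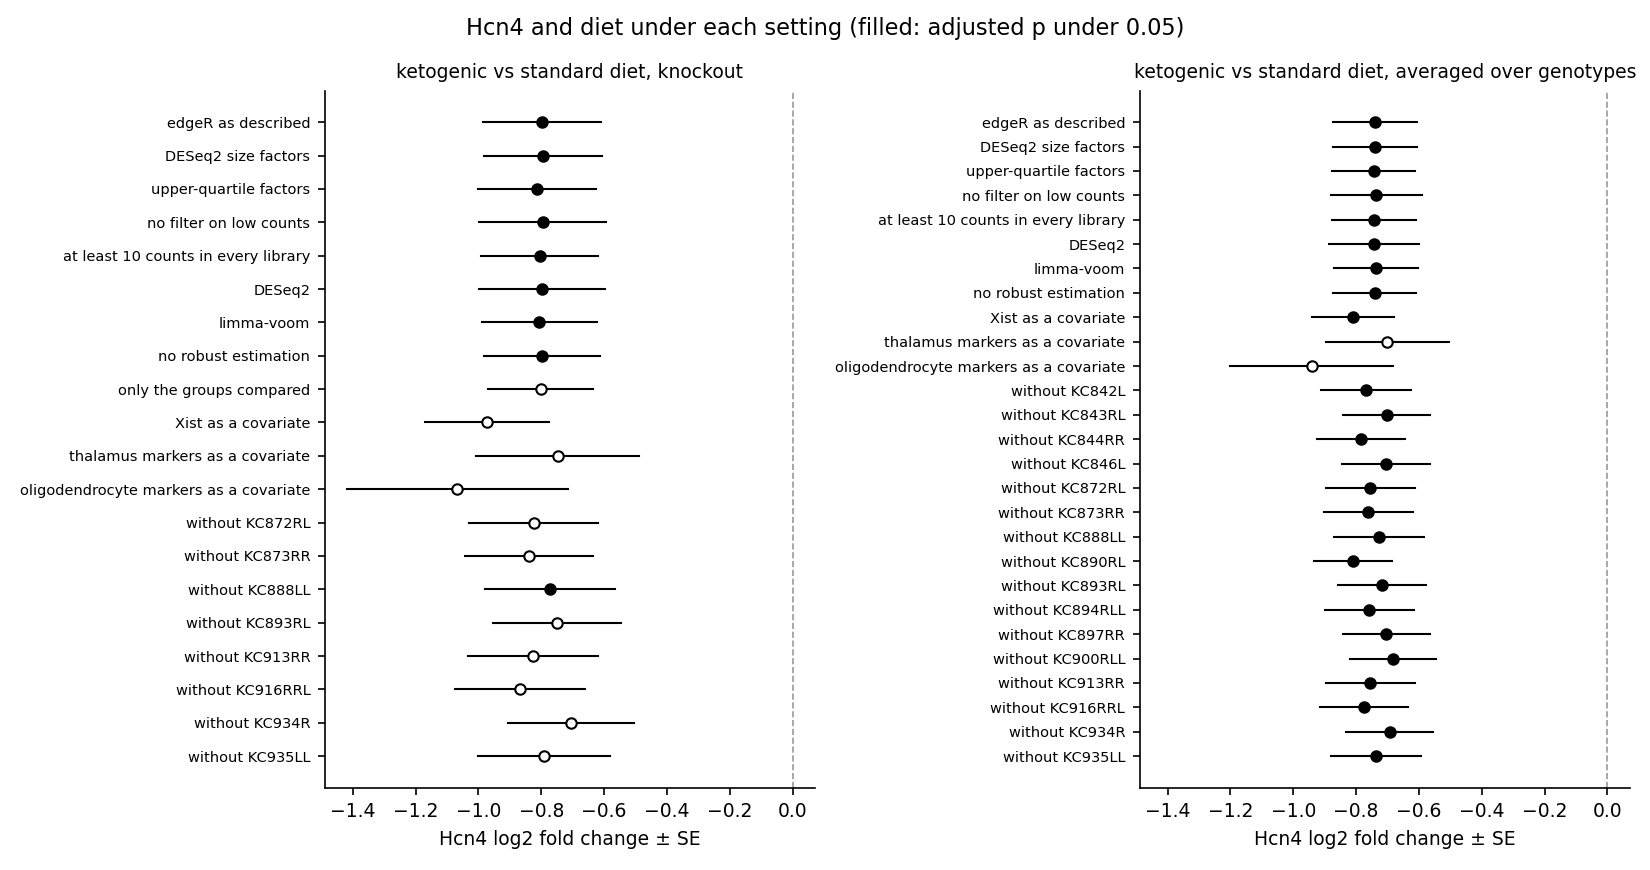
Log2 fold change of Hcn4 with the ketogenic diet in the knockout (left) and over both genotypes (right) under each setting, with bars of ± SE. Filled points have an adjusted p under 0.05. All values lie below 0, between -1.07 and -0.68, and the filled points are fewer on the left.

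The other 3 genes moved little with the diet. Hcn2 had a log2 fold change of -0.057 ± 0.065 (SE) in the knockout and -0.032 ± 0.065 in wild type, and over both genotypes the 95% interval of its fold was 0.907 to 1.04. Pex5l had values of -0.023 ± 0.10 and 0.015 ± 0.10 (SE), with an interval over both genotypes of 0.898 to 1.11. Hcn3 had 0.095 ± 0.13 in the knockout and -0.14 ± 0.13 in wild type (SE), with an interval of 0.859 to 1.13. The adjusted p of the 3 genes in edgeR lay between 0.699 and 0.990 for the average over genotypes. Changes of more than about these intervals were therefore not seen, and smaller ones could not be told from the spread between animals.

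The genotype comparisons ask what the loss of Kcna1 changes on each diet. None of the 4 genes was called on either diet, while Hcn2 and Pex5l lay lower in the knockout by similar amounts on both. Hcn2 is the main channel subunit by level here, and encodes a channel that responds strongly to cyclic AMP. It measured 99.0, 103, 106 and 113 CPM in standard-fed wild type. In the knockout on that diet it measured 87.6, 87.7, 99.5 and 100.3 CPM. The upper knockout libraries reached into the lower part of the wild type range. The log2 fold change was -0.17 ± 0.065 (SE), a fold of 0.891 (95% interval 0.811 to 0.980; edgeR, unadjusted p = 0.0202, adjusted p = 0.265).

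On the ketogenic diet Hcn2 measured 96.0, 102, 105 and 109 CPM in wild type and 83.1, 87.8, 93.0 and 96.6 CPM in the knockout. The groups overlapped by a single library on each side. The log2 fold change was -0.19 ± 0.065 (SE), a fold of 0.876 (95% interval 0.796 to 0.963; edgeR, unadjusted p = 0.00860, adjusted p = 0.417). Over both diets it was -0.18 ± 0.046 (SE), a fold of 0.883 (95% interval 0.826 to 0.945; edgeR, adjusted p = 0.101).

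Pex5l measured 150, 170, 185 and 186 CPM in standard-fed wild type. In the knockout on that diet it measured 126, 145, 151 and 179 CPM, and the highest value belonged to KC888LL. On the ketogenic diet it measured 157, 170, 186 and 187 CPM in wild type and 129, 141, 156 and 166 CPM in the knockout. Groups overlapped on both diets. The log2 fold change was -0.20 ± 0.10 (SE) in standard-fed mice (edgeR, adjusted p = 0.369) and -0.24 ± 0.10 on the ketogenic diet (unadjusted p = 0.0284, adjusted p = 0.492). Over both diets it was -0.22 ± 0.072 (SE), a fold of 0.856 (95% interval 0.771 to 0.951; edgeR, adjusted p = 0.160).

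On the standard diet 1 of the 4 genes had an unadjusted p under 0.05 (Hcn2), as did 14.3% of all genes. In that comparison 1 gene was called (0.00572%), and 1016 were called without KC888LL. On the ketogenic diet 2 of 4 had such a p (Hcn2 and Pex5l), beside 9.22% of all genes, and 0.0172% were called. Over both diets it was again 2 of 4 (Hcn2 and Pex5l) beside 15.8%, and 0.0973% of genes were called. DESeq2 called Hcn2 over both diets (adjusted p = 0.0249) among 2.38% of genes called, 1.01% called lower, and limma-voom called 0 of the 4 in any genotype comparison. Without KC888LL, the library with an intermediate Kcna1 level, edgeR called both Hcn2 (log2 fold change -0.20, adjusted p = 0.0215) and Pex5l (-0.28, adjusted p = 0.0218) over both diets. In that fit 4.96% of all genes were called and 2.68% were called lower.

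Marker lists also had different levels between the genotypes. The 6 astrocyte markers summed to 1384 to 1559 CPM in wild type and 1437 to 3881 CPM in standard-fed knockouts, and to 1327 to 1347 CPM and 1292 to 2956 CPM on the ketogenic diet. Most of the higher sum came from Gfap, whose mean was 352 CPM (wild type) and 1157 CPM (knockout) in standard-fed mice and 323 and 915 CPM in ketogenic-fed mice. On the ketogenic diet 3 of 6 markers were higher and 3 lower. Over both diets 6 of 6 were higher in the knockout, 0 were called by edgeR or limma-voom and 1 by DESeq2, and 2 had an unadjusted p under 0.05. The lowest Hcn2 and Pex5l values on each diet belonged to libraries with a high astrocyte sum, KC872RL (3881 CPM) and KC934R (2240 CPM). Of the other libraries with a high sum, KC873RR (2812 CPM) had the second highest Hcn2 and Pex5l values of its group, 99.5 and 151 CPM. KC913RR (2956 CPM) had the second lowest Hcn2 value of its group, 87.8 CPM, and the second highest Pex5l value, 156 CPM. Over the 16 libraries the astrocyte sum had r of -0.599 with Hcn2 (within groups -0.446) and -0.625 with Pex5l (within groups -0.449), in log2 CPM. The 7 interneuron markers summed to 694 to 757 CPM in wild type and 748 to 909 CPM in standard-fed knockouts, and to 665 to 769 CPM and 753 to 1016 CPM on the ketogenic diet. Over both diets 6 of 7 were higher, 0 were called by edgeR or limma-voom and 2 by DESeq2, and 3 had an unadjusted p under 0.05. The 6 CA1 pyramidal cell markers, such as Fibcd1 and Wfs1, were 6 of 6 lower in the knockout over both diets, with 0 called by edgeR, DESeq2 or limma-voom and 3 at an unadjusted p under 0.05, and summed to 397 to 607 CPM in wild type and 355 to 483 CPM in the knockout on the standard diet, and to 476 to 602 CPM and 394 to 609 CPM on the ketogenic diet. On the standard diet the 5 microglia markers were 5 of 5 higher in the knockout, at summed levels of 217 to 246 CPM in wild type and 229 to 439 CPM in the knockout, with 0 called by edgeR or limma-voom, 1 by DESeq2 and 4 at an unadjusted p under 0.05. Over all genes 14.3% had such a p in that comparison, and DESeq2 called 169. On the ketogenic diet 5 of 5 microglia markers were lower in the knockout, with 0 called by edgeR, DESeq2 or limma-voom and 0 at an unadjusted p under 0.05. On the standard diet the 5 CA3 markers were 5 of 5 lower, with 0 called by edgeR, DESeq2 or limma-voom and 2 at an unadjusted p under 0.05. Of the 8 hippocampal markers 6 were lower there and 2 higher, with 4 lower and 1 higher at an unadjusted p under 0.05. Over all 8, in either direction, 0 were called by edgeR or limma-voom and 1 by DESeq2. The 10 oligodendrocyte markers were 10 of 10 lower in the knockout on the ketogenic diet, at 3378 to 4290 CPM in wild type and 1960 to 3671 CPM in knockouts, with 0 called by edgeR, DESeq2 or limma-voom and 6 at an unadjusted p under 0.05. Over both diets they were again 10 of 10 lower, with 0 called by edgeR or limma-voom, 1 by DESeq2 and 4 at an unadjusted p under 0.05, and their sum had r of 0.453 with Hcn2 (within groups 0.275). Of the 6 dentate granule cell markers 4 were lower over both diets and 2 higher, with 0 called by edgeR or limma-voom, 1 by DESeq2, and 2 lower and 1 higher at an unadjusted p under 0.05. On the standard diet 5 of 6 thalamus markers were higher in the knockout, 2 at an unadjusted p under 0.05. Of the 6, 0 were called by edgeR or limma-voom and 1 by DESeq2. On the ketogenic diet 3 were higher and 3 lower. The habenula sum was 4.04 to 4.94 CPM in wild type and 5.03 to 8.75 CPM in standard-fed knockouts, without overlap. Of all tested genes, taken singly, 2.97% lay higher in the knockout there without overlap. Of the 5 markers in the sum 3 passed the filter. On the ketogenic diet the habenula sum was 3.60 to 5.18 CPM and 4.26 to 6.69 CPM. It had r of -0.605 with Hcn2 (within groups -0.585) and -0.516 with Pex5l (within groups -0.310). The part of these cells in the differences of Hcn2 and Pex5l was not tested.

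Hcn3 encodes a subunit whose channel responds little to cyclic AMP. It measured 16.02, 17.2, 17.9 and 20.7 CPM in wild type and 15.6, 17.4, 18.6 and 20.9 CPM in standard-fed knockouts, almost the same range. On the ketogenic diet it measured 15.1, 15.5, 16.3 and 18.4 CPM in wild type and 15.3, 15.9, 22.98 and 23.0 CPM in the knockout. The upper values of the last group, KC934R and KC913RR, were the highest of all 16 libraries, and the other 2 lay within the wild type range. The log2 fold change was 0.015 ± 0.13 (SE) in standard-fed mice (edgeR, adjusted p = 0.975) and 0.25 ± 0.13 on the ketogenic diet (adjusted p = 0.583). KC913RR and KC934R were also the libraries of their group with high astrocyte sums, 2956 and 2240 CPM against 1292 and 1307 CPM, and with high interneuron sums, 1016 and 892 CPM against 753 and 795 CPM. Whether these move together for a shared reason was not tested.

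Hcn4 did not differ between genotypes beyond the spread: its log2 fold change was 0.32 ± 0.18 (SE) in standard-fed mice (edgeR, adjusted p = 0.446) and 0.20 ± 0.19 on the ketogenic diet (adjusted p = 0.775). Over both diets it was 0.26 ± 0.13 (SE), with a 95% interval of the fold from 0.987 to 1.46. An increase of that size is therefore within what the data allow. On the standard diet the lowest wild type values overlapped none of the knockout values. The 2 highest wild type values, 4.80 and 5.10 CPM, lay inside the knockout range. Of the 6 thalamus markers 5 were also higher in those knockouts, 2 at an unadjusted p under 0.05, beside 14.3% of all genes. The habenula sum was 4.04 to 4.94 CPM in wild type and 5.03 to 8.75 CPM in the knockout there. The part of these neighbouring tissues in the Hcn4 values was not tested.

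**Figure D5:**
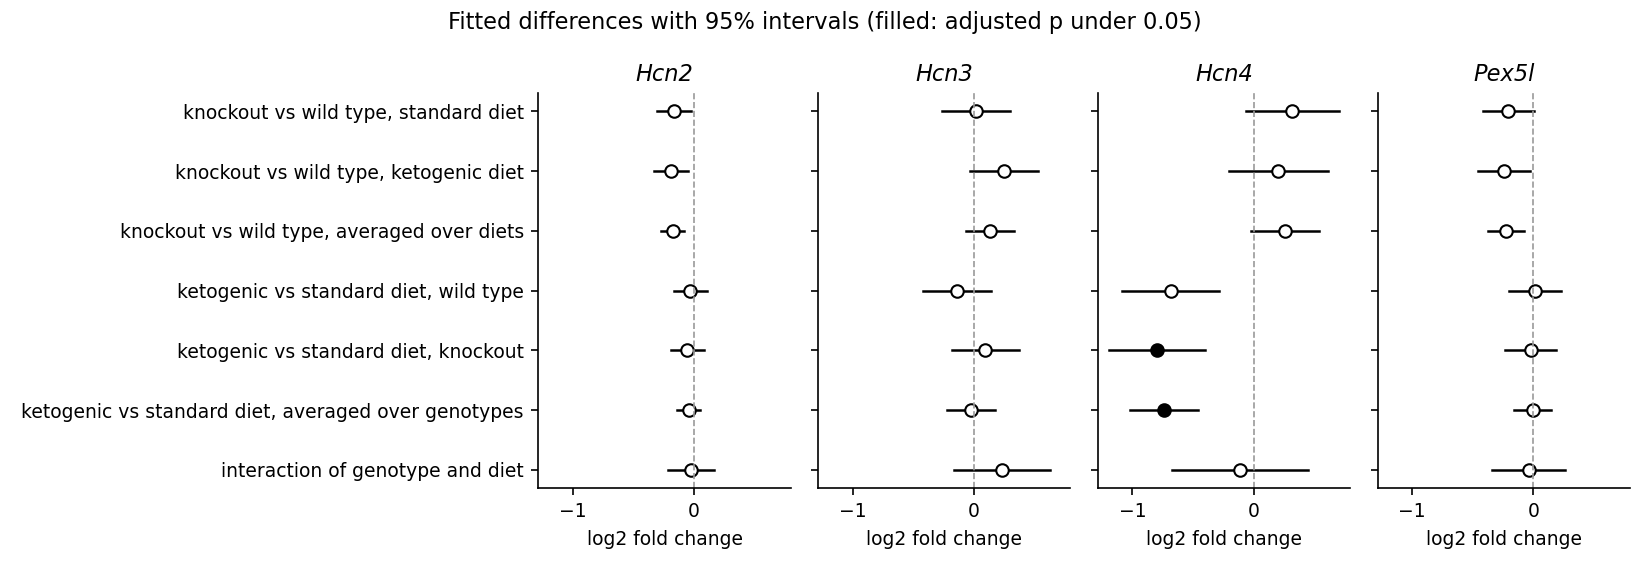
Fitted log2 fold changes (points) with 95% intervals (bars) of the 4 genes in 7 comparisons, on 1 shared axis. Filled points have an adjusted p under 0.05. The diet shifts Hcn4 by -0.80 in the knockout and -0.74 over both genotypes, while in the genotype comparisons Hcn2 lies at -0.17 to -0.19 and Pex5l at -0.20 to -0.24.

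The pairs of members differed in how they varied together. Across the 16 libraries Hcn2 and Pex5l had Pearson's r of 0.702 and Spearman's rho of 0.629 in log2 CPM, with r of 0.468 after group means were subtracted and 0.562 without the 2 libraries farthest from the Hcn2 median. Hcn2 and Hcn3 had r of -0.433 and rho of -0.309, r of -0.363 within groups and -0.529 without the same 2 libraries. Hcn4 had r of 0.018 with Hcn2 and 0.035 with Pex5l over all libraries, of 0.302 and 0.593 within groups, and of -0.328 and 0.048 without the 2 farthest libraries. Hcn3 and Hcn4 had r of 0.251 and rho of 0.447, r of 0.259 within groups and 0.703 without the 2 libraries farthest from the Hcn3 median. Hcn3 and Pex5l had r of -0.232, -0.048 within groups and 0.048 without the 2 farthest. These are descriptions over 16 libraries that share scaling factors.

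The genes most like each member were ranked by Pearson's r of log2 CPM over the 16 libraries among 10276 genes with a mean of at least 10 CPM. For Hcn2 they were Nfic (r = 0.879), Helq (0.854) and Wwc1 (0.850). For Pex5l they were Atg16l2 (0.908), Nr4a2 (0.906) and Arhgap33 (0.886). For Hcn3 they were Slc36a1 (0.876), Pgk1 (0.875) and Rpn1 (0.868). For Hcn4 they were Ptprm (0.874), Ehd4 (0.808) and Elmo1 (0.803), whose r within groups was 0.617, 0.482 and 0.467. For Hcn2, Hcn3 and Pex5l the within-group r of these genes lay between 0.704 and 0.944. All of these genes were picked for a high r in the same 16 libraries, so the values describe the choice and no chance level is given.

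Genes that bind or modulate HCN channels were taken from a list of 15, all tested. In edgeR 0 of 15 were called in any of the 7 comparisons. With the diet in the knockout 4 had an unadjusted p under 0.05, all higher, beside 16.9% of all genes in either direction and 7.83% higher. DESeq2 called 2 of the 15, among 677 genes called in all, and limma-voom 0. The median log2 fold change of the list was 0.11 against 0.0069 over all genes. The smallest p there was that of Src, a kinase that phosphorylates HCN channels, at 0.26 ± 0.071 (SE; edgeR, adjusted p = 0.0801). Between genotypes on the standard diet 2 of 15 had an unadjusted p under 0.05, both lower, a share near the 14.3% of all genes, and Src again had the smallest p, at -0.24 ± 0.071 (adjusted p = 0.202). The standard-fed knockouts enter both of these comparisons. In the interaction Src was at 0.27 ± 0.0999 (SE; edgeR, adjusted p = 0.654). In wild type with the diet the smallest p was that of Flna, a cytoskeletal protein that binds the channel, at 0.20 ± 0.11 (adjusted p = 0.951), and it also led over both genotypes at 0.23 ± 0.080 (adjusted p = 0.204). Between genotypes on the ketogenic diet Kcne2, a small accessory subunit, had the smallest p, at -3.16 ± 1.55 (adjusted p = 0.566), and without KC844RR it was at -0.80. Kcne2 is known to be abundant in the choroid plexus, and it ranged from 0.0628 to 6.19 CPM over the libraries. Over both diets Irag1, which modulates HCN4, led at 0.41 ± 0.18 (adjusted p = 0.266).

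Cyclic AMP is the ligand of HCN channels, so the genes of its synthesis and breakdown were read from the same fit. Of 13 phosphodiesterase genes, which break down cyclic nucleotides, 1 was called in 1 comparison, the diet in knockouts, where 1.16% of all genes were called. Pde8a fell with the diet in knockouts by 0.58 ± 0.14 (SE) on the log2 scale (edgeR, adjusted p = 0.0429), from a mean of 15.4 to 10.3 CPM. It was called in 3 of the 8 leave-one-library-out fits and in 6 of 11 alternatives. The call was lost at a similar fold with limma-voom (-0.58, adjusted p = 0.0589) and with only the groups compared (-0.59, edgeR, adjusted p = 0.150). The same held with the Xist covariate (-0.56, edgeR, adjusted p = 0.215) and the thalamus covariate (-0.57, edgeR, adjusted p = 0.220). With the oligodendrocyte covariate Pde8a was at -0.062 and not called. The other 12 were not called in that comparison, and the median of the 13 was 0.10. In the other comparisons 0 of 13 were called by edgeR or limma-voom, and DESeq2 called 1 in each of the 2 averages. Between genotypes over both diets 3 higher and 3 lower had an unadjusted p under 0.05, beside 15.8% of all genes. On the ketogenic diet 3 higher and 2 lower had such a p (9.22% of all genes), and on the standard diet 2 lower (14.3%). In the interaction it was 2 higher and 2 lower (7.48%). With the diet it was 1 lower in wild type (5.46%) and 2 lower over both genotypes (14.4%). The smallest p belonged to Pde4d between genotypes on the standard diet (-0.29 ± 0.082, adjusted p = 0.202) and in the interaction (0.27 ± 0.12, adjusted p = 0.654). It belonged to Pde4b between genotypes on the ketogenic diet (0.46 ± 0.13, adjusted p = 0.404) and over both diets (0.30 ± 0.091, adjusted p = 0.144). With the diet it belonged to Pde1c in wild type (-0.58 ± 0.27, adjusted p = 0.915) and to Pde8a over both genotypes (-0.36 ± 0.094, adjusted p = 0.0830).

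Of 8 adenylyl cyclase genes, which make cyclic AMP, 0 were called in any comparison by edgeR, DESeq2 or limma-voom, and at most 2 had an unadjusted p under 0.05 in any one of them. The 2 were in the genotype comparison over both diets, where 15.8% of all genes had such a p. Adcy9 had the smallest p with the diet in knockouts (0.27 ± 0.082, adjusted p = 0.113), over both genotypes (0.17 ± 0.058, adjusted p = 0.174) and between genotypes on the standard diet (-0.18 ± 0.082, adjusted p = 0.331). Adcy5 led between genotypes on the ketogenic diet (0.22 ± 0.076, adjusted p = 0.424) and over both diets (0.17 ± 0.054, adjusted p = 0.160). Adcy6 led with the diet in wild type (0.10 ± 0.057, adjusted p = 0.951) and Adcy7 in the interaction (-0.59 ± 0.32, adjusted p = 0.718).

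Of 6 protein kinase A subunit genes, 0 were called by edgeR or limma-voom in any comparison and 1 by DESeq2 between genotypes over both diets, where 4 of 6 had an unadjusted p under 0.05. Over all genes 2.38% were called by DESeq2 in that comparison and 15.8% had an unadjusted p under 0.05. Prkacb, a catalytic subunit, had the smallest p there (0.24 ± 0.061, adjusted p = 0.101), and it was higher by similar values on the standard diet (0.23 ± 0.087, adjusted p = 0.252) and on the ketogenic diet (0.25 ± 0.087, adjusted p = 0.433), and at -0.13 ± 0.061 with the diet over both genotypes (adjusted p = 0.352). Prkar2b, a regulatory subunit, led with the diet in knockouts (0.23 ± 0.092, adjusted p = 0.224) and in wild type (-0.17 ± 0.092, adjusted p = 0.940), and in the interaction (0.40 ± 0.13, adjusted p = 0.654). Of 6 other cyclic nucleotide gated channel genes, relatives of the HCN family known from sensory cells, 2 passed the filter, Cnga4 at 0.669 to 2.24 CPM and Cngb1 at 0.268 to 1.68 CPM. Neither was called by edgeR, DESeq2 or limma-voom, and neither had an unadjusted p under 0.05 in any comparison. Cngb1 had the smaller p between genotypes on the standard diet (-0.29 ± 0.45, adjusted p = 0.816) and over both diets (-0.28 ± 0.32, adjusted p = 0.722), and with the diet in wild type (-0.34 ± 0.44, adjusted p = 0.998) and over both genotypes (-0.33 ± 0.32, adjusted p = 0.681). Cnga4 had it between genotypes on the ketogenic diet (0.34 ± 0.34, adjusted p = 0.787), with the diet in knockouts (0.33 ± 0.34, adjusted p = 0.675) and in the interaction (0.28 ± 0.49, adjusted p = 0.919).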

How the data were processed

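The authors deposited 1 table of raw counts per gene for 16 hippocampal libraries, with an animal tag, genotype and diet in each column name and no replicate number. Per the submitters' processing notes the build is mm10 and DESeq2 was used; the aligner, the counter and the annotation are not given in the sources used here. Whether animals shared a litter or run is not in the labels, so p-values measure the spread between these samples. The animal tags ran from KC842L to KC846L in ketogenic-fed wild type and from KC913RR to KC935LL in ketogenic-fed knockouts. Those of both standard-fed groups lay between, from KC872RL to KC900RLL. What the tags stand for is not given. The diet comparisons, and that of genotypes on the ketogenic diet, cannot be told apart from anything that goes with tag order. Of 49315 identifiers 48970 were in GENCODE M21 (GRCm38), used for positions and exon lengths; promoter windows are from RefSeq. Counts were tested in edgeR 4.0.16 (R 4.3.3) after filterByExpr and TMM, with a robust quasi-likelihood fit to all 16 libraries and 12 residual degrees of freedom, a two-sided F test and Benjamini-Hochberg adjustment over 17469 genes; a gene is called at an adjusted p under 0.05. Log2 CPM used a prior count of 2. Alternatives were DESeq2 1.42.0, limma-voom (limma 3.58.1), other scaling, filters, dispersion and covariates, and each library left out. The fit was tested on simulated data, and the outcome of that test is not given here. Named genes were the 4 members, Kcna1, the called or else lowest-p gene of each pathway list and comparison, and the 3 genes most like each member. Members and lists were chosen with earlier results of these data known.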

Additional observations from a re-analysis of the deposited data

Results flagged for a closer look

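Among 20 groups of 4 libraries, for the 4 members and Kcna1, 2 held a library whose distance from the nearest of the others took more of the range of its group than Dixon's 95% critical value allows; chance gives about 1 in 20. Both concern Kcna1. The library labelled knockout KC888LL measured 82.0 CPM on the standard diet, where the other 3 of its group lay between 44.6 and 47.0 CPM. KC894RLL, wild type on the standard diet, measured 129.7 CPM, where the other 3 lay between 116 and 119 CPM. For Hcn2, Hcn3, Hcn4 and Pex5l 0 of 16 groups held such a library.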

How the results depend on the processing

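No paired analysis was possible because the columns of the count table carry no replicate number. Of the values of the 4 members under another setting, 560 kept their direction and side of the threshold, 40 changed sign, 13 lost the call and 3 gained it. Changing the scaling, filter or dispersion left Hcn4 called with the diet in knockouts and over both genotypes. In knockouts the call was lost with only the groups compared (-0.80, adjusted p = 0.120) and with the Xist covariate (-0.97). With the thalamus covariate, chosen after seeing the data, Hcn4 was at -0.75 in knockouts and -0.70 over both genotypes (adjusted p = 0.288 and 0.305), Hcn3 at -0.031 in knockouts, Pex5l at -0.014 and Cngb1 at 0.077 in wild type, and Cngb1 at 0.23 over both. With the oligodendrocyte covariate, also chosen after seeing the data, Hcn4 was at -1.07 and -0.94 (adjusted p = 0.361 and 0.245). In that fit the diet values in knockouts were 0.039 for Hcn2, -0.33 for Hcn3 and -0.13 for Prkar2b, those in wild type 0.019 for Hcn2, -0.027 for Pex5l and -0.041 for Flna, and those over both 0.029 for Hcn2, 0.044 for Pde8a, -0.12 for Flna and 0.075 for Cngb1, with 0.020 for the Hcn2 interaction. Without a filter Pex5l was at 0.0013 over both genotypes. DESeq2 called Hcn2 between genotypes over both diets (-0.18, adjusted p = 0.0249). The causes were not tested.

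Leaving out 1 library at a time, values between genotypes ran from -0.056 to 0.090 for Hcn3 and -0.80 to 0.011 for Cngb1 on the standard diet, from -0.024 to 0.55 for Cnga4 on the ketogenic diet, and over both diets from -0.20 to -0.16 for Hcn2 and -0.28 to -0.18 for Pex5l, both called without KC888LL. With the diet they ran in knockouts from -0.87 to -0.71 for Hcn4, -0.096 to 0.076 for Pex5l and -0.035 to 0.54 for Cnga4, in wild type from -0.060 to 0.0040 for Hcn2 and -0.048 to 0.066 for Pex5l, and over both from -0.068 to 0.028 for Hcn3 and -0.041 to 0.047 for Pex5l. Interactions ran from -0.061 to 0.012 for Hcn2, -0.23 to 0.028 for Hcn4, -0.11 to 0.059 for Pex5l and -0.083 to 0.49 for Cnga4. The number of genes called with the diet in knockouts was 202, 677 with DESeq2, 2 with the oligodendrocyte covariate, 28 without KC872RL and 1096 without KC888LL. Between genotypes over both diets it was 17, 416 with DESeq2, 880 without KC888LL, 7 with the oligodendrocyte covariate and 6 without KC893RL. On the standard diet it was 1 between genotypes, 169 with DESeq2 and 1016 without KC888LL. With the diet over both genotypes it was 157, 432 with DESeq2, 457 without KC888LL and 51 without KC890RL. In the same comparison it was 3 with the oligodendrocyte covariate and 2 with the thalamus covariate. Among the 4 members depth limits Hcn4 most, at 40 to 100 counts per library.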

Other observations

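The members were set beside the summed level of each marker list over the 16 libraries, for all 4 members and 10 marker lists, as a description. Pex5l had Pearson's r of 0.706 and Spearman's rho of 0.691 with the 6 CA1 pyramidal cell markers, such as Fibcd1 and Wfs1, with r of 0.755 within groups and 0.699 without the 2 libraries farthest from the median sum. With the 6 dentate granule cell markers its r was 0.039 (within groups -0.14, without the 2 farthest 0.371), and with the 5 CA3 pyramidal cell markers it was 0.00044 (within groups -0.267, without the 2 farthest -0.453). Hcn3 and Hcn2 had opposite signs with the 7 interneuron markers, at r of 0.746 (rho 0.618, within groups 0.820) and -0.750 (rho -0.671, within groups -0.471). Without the 2 farthest libraries these were 0.570 and -0.684. All points share libraries and scaling factors.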
